A study of Homo sapiens with 8 samples.

Results

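Receptor tyrosine kinases were followed here through 10 genes, KIT, PDGFRA, PDGFRB, EGFR, ERBB2, MET, AXL, FGFR1, IGF1R and RET. The genes were picked by symbol from the 58884 gene identifiers of 4 tables, one for each human thyroid cancer cell line, and all 10 were found. Their control levels and their treated over control ratios were known when they were picked, so those values are given as a description with no test. Each table held a treated and a control library. 8505C cells had received an siRNA against NR1D1 or a control siRNA, and CAL-62 cells the same. TPC-1 cells had been transfected with a vector that overexpresses NR1D1 or with its empty form, and FTC-133 cells the same. The labels give these treated groups as NR1D1 knockdown and NR1D1 overexpression. 8505C and CAL-62 come from anaplastic thyroid carcinomas, TPC-1 from a papillary and FTC-133 from a follicular carcinoma. The labels give each control the genotype WT, which says nothing of the mutations that the lines carry. Each group was 1 library, so no difference within a line has a replicate check. The study asked how the transcriptome changes when NR1D1, which encodes the clock repressor REV-ERB alpha, is lowered or raised.

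Receptor tyrosine kinases are membrane proteins that bind a growth factor outside the cell, pair up and phosphorylate each other on tyrosines inside it. The phosphotyrosines recruit adaptors such as GRB2 and SHC1, which feed the MAPK and PI3K pathways, while the ubiquitin ligase CBL marks active receptors for breakdown. In thyroid cancer the family is best known through RET, whose rearranged forms drive many papillary carcinomas, and through kinase inhibitors that act on RET, KIT and the PDGF receptors among others.

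NR1D1 itself stood at 11.2 TPM after its siRNA and 18.2 TPM with control siRNA in 8505C, and at 10.1 and 22.0 TPM in CAL-62. It stood at 209 TPM with the NR1D1 vector and 190 TPM with the empty vector in TPC-1, and at 137 and 105 TPM in FTC-133. Recovered library totals ran from 12.86 to 23.18 in units of 1000000 reads. Of 8 thyroid follicular markers, between 1 and 3 reached 1 TPM in a library. SLC5A5, the iodide transporter gene, was listed at 0 in 7 of 8 libraries, and the transcription factor gene PAX8 ran from 0.501 to 330 TPM. Transcripts of the mitochondrial genome made up 67.8% of TPM after siRNA and 57.2% in the control of CAL-62, against 15.7% to 29.3% in the other lines. Shares of that size lower the TPM of all other genes, and the median gene of CAL-62 had a log2 ratio of -0.28, beside 0.05 in 8505C, -0.02 in TPC-1 and 0.05 in FTC-133. In bulk RNA, fewer cells that express a gene and less of its RNA per cell cannot be told apart.

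The KIT, EGFR and PDGFRB promoters are printed because these genes had the largest log2 ratios among the 10. Each is the RefSeq window on GRCh38.p14 from 250 bases before to 50 bases after the annotated start, for KIT at chr4:54657707-54658006 on the plus strand, for EGFR the upstream of its windows at chr7:55018767-55019066 on the plus strand, and for PDGFRB at chr5:150155796-150156095 on the minus strand. Capitals mark the GC box GGGCGG on either strand, the only one of the 4 motifs searched that these windows held.
KIT: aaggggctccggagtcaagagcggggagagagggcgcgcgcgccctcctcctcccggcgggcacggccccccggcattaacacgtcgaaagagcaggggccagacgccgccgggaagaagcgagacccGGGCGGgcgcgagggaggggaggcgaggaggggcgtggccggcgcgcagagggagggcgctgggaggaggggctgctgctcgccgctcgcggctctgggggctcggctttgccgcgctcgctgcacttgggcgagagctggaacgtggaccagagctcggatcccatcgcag
EGFR: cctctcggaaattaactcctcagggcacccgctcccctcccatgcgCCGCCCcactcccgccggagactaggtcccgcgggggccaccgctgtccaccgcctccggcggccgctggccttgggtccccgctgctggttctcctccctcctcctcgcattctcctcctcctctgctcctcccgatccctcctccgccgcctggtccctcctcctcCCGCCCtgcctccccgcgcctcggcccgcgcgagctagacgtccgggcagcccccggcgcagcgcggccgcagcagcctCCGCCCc
PDGFRB: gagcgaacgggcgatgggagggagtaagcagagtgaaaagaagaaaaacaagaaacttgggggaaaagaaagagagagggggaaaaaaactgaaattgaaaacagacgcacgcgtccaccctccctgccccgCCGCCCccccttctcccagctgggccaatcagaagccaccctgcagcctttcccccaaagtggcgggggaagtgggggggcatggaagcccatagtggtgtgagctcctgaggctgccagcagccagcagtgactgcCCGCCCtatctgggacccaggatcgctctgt
The table held 13 windows for 9 of the 10 genes, all but FGFR1. The motif AGGTCA, the core of the elements that REV-ERB alpha binds, was in 0 of these 13 windows and in 13.8% of all 35116 windows on either strand. The E-box CACGTG was in 1 window, that of MET, and in 7.26% of all. The AP-1 motif TGANTCA was in 3 windows, of PDGFRA, EGFR and ERBB2, and in 7.71% of all. The GC box was in 9 windows, of KIT, PDGFRA, PDGFRB, EGFR, MET, AXL, IGF1R and RET, and in 45.0% of all, and no match of one motif overlapped a match of another. Neighbouring GC boxes can share a base, and each was counted. A match is a run of letters and not a shown binding site.

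The positions on GRCh38 show how far the genes are spread. KIT lies on chromosome 4 from 54657918 to 54740715, and PDGFRA lies upstream of it on the same chromosome and strand from 54229097 to 54298247. EGFR and MET are both on chromosome 7, from 55019021 to 55211628 and from 116672390 to 116798386. PDGFRB is on chromosome 5 (150113837 to 150155872), RET on chromosome 10 (43077027 to 43130351), IGF1R on chromosome 15 (98648539 to 98964530), ERBB2 on chromosome 17 (39687914 to 39730426), AXL on chromosome 19 (41219203 to 41261766) and FGFR1 on chromosome 8 (38400215 to 38468834). No source used here says whether counting used strand. ERBB2 shares 571 exon bases with MIEN1, its largest overlap, on the other strand, EGFR 186 with EGFR-AS1, FGFR1 156 with AC087623.1 and AXL 67 with AC011510.1, and reads there cannot be assigned to a strand. PDGFRA shares 1533 of its 9732 exon bases with AC058822.1 on its own strand, a gene listed at 0 TPM in every library. No source used here says how reads that fall on overlapping genes were counted.

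AXL and MET held the largest share of the summed level of the 10 genes in every library. Outside the 10, EPHA2 was above MET in 8505C, at 235 TPM after siRNA and 106 TPM in the control. Levels are in TPM, a transcript abundance scaled for gene length and library depth, and so comparable between genes. The 4 tables were normalized separately, and levels set across lines rest on that. AXL, a receptor for GAS6, stood at 402 TPM after siRNA and 214 TPM with control siRNA in 8505C, and at 198 and 156 TPM in CAL-62. It stood at 522 TPM with the NR1D1 vector and 565 TPM with the empty vector in TPC-1, and at 303 and 263 TPM in FTC-133. AXL was thus the highest of the 10 in 7 libraries. MET, the receptor for hepatocyte growth factor, was the highest in the CAL-62 control, at 173 TPM beside 175 TPM after siRNA. In the other lines MET stood at 112 and 75.5 TPM in 8505C, at 471 and 547 TPM in TPC-1 and at 236 and 181 TPM in FTC-133, each pair with the treated library before its control. AXL and MET together made up between 66.2% and 84.3% of the summed level of the 10 genes. That sum was 677 TPM after siRNA and 436 TPM in the control of 8505C, 499 and 487 TPM in CAL-62, 1178 and 1350 TPM with and without the NR1D1 vector in TPC-1, and 687 and 554 TPM in FTC-133.

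**Figure D1:**
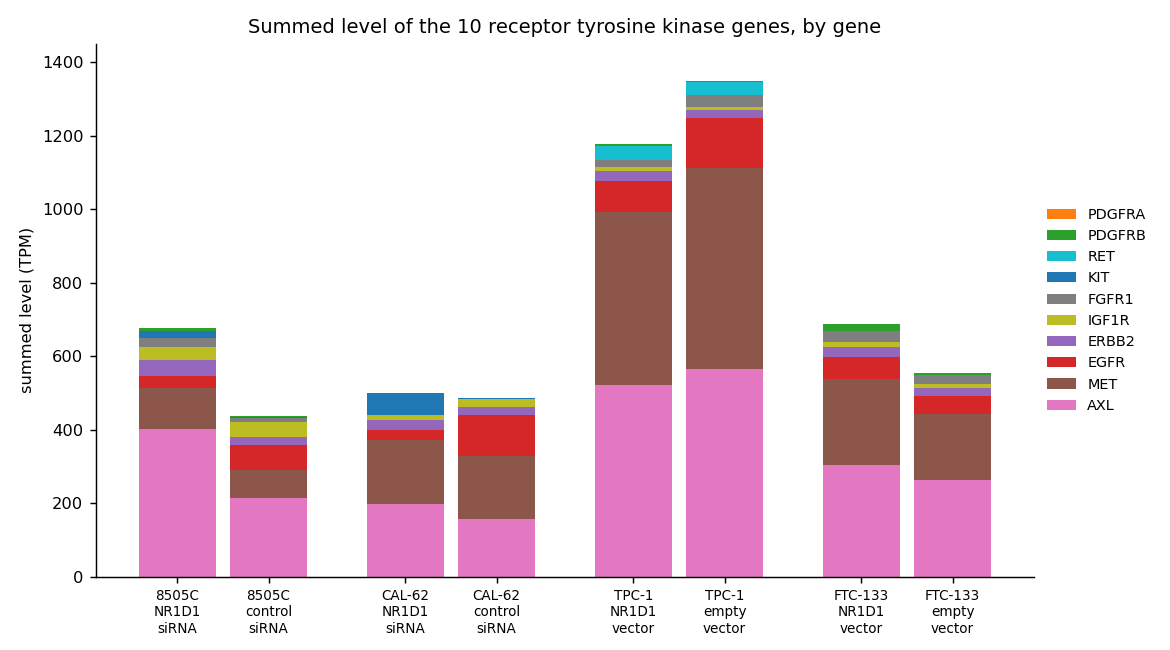
Stacked bars give the summed level of the 10 genes in TPM for each of the 8 libraries, with the treated library to the left of its control and each colour a gene. AXL and MET fill most of every bar, the TPC-1 bars are the tallest at 1178 and 1350 TPM, and EGFR is a thinner band in both siRNA libraries than in their controls.

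Across the 4 control libraries the genes differed in how line-bound they were. ERBB2, the ligandless partner of the ERBB family, was nearly flat in TPM, from 21.0 TPM in FTC-133 to 23.0 TPM in 8505C. Mitochondrial transcripts took 57.2% of TPM in the CAL-62 control, against 17.4% to 29.3% in the other controls. That lowers the CAL-62 levels most, so the flatness of ERBB2 and the place of CAL-62 depend on the scaling. The control levels of EGFR, the epidermal growth factor receptor gene, ran from 48.4 TPM in FTC-133 to 136 TPM in TPC-1. IGF1R, the insulin-like growth factor receptor gene, was highest in 8505C at 38.3 TPM, then 21.8 TPM in CAL-62, 11.8 TPM in FTC-133 and 8.79 TPM in TPC-1. At the other extreme RET stood at 35.7 TPM in TPC-1, 0.54 TPM in FTC-133, 0.07 TPM in 8505C and 0.0608 TPM in CAL-62, the last 2 on 2 and 3 reads. TPC-1 is known for a CCDC6-RET fusion, and a value per gene does not tell fusion reads from reads of the whole gene. FGFR1 also varied by line, at 32.3 TPM in TPC-1, 23.9 TPM in FTC-133 and 11.7 TPM in 8505C, against 0.573 TPM in CAL-62.

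KIT, the stem cell factor receptor gene, separated the siRNA lines from the vector lines, with control levels of 4.25 TPM in 8505C and 3.93 TPM in CAL-62 and no reads in TPC-1 or FTC-133. A count of 0 allows up to 0.0919 TPM in TPC-1 and 0.124 TPM in FTC-133 (3 reads). Whether this goes with the lines or with the 2 kinds of experiment cannot be told apart. PDGFRB, a platelet-derived growth factor receptor gene, was at 4.56 TPM in FTC-133 and 3.06 TPM in TPC-1, against 0.52 TPM in 8505C and 0.039 TPM in CAL-62. PDGFRA, its paralog, was close to silent in all lines, with at most 14 reads in a library and no read in 5 of the 8. On the log2(TPM + 1) scale, a range of at least 3 over the controls was met by 2 of the 9 genes with a mean of at least 1 TPM, RET at 5.11 and FGFR1 at 4.41. Among all 17595 such genes 15.7% met it, and the next below the threshold was MET at 2.84.

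**Figure D2:**
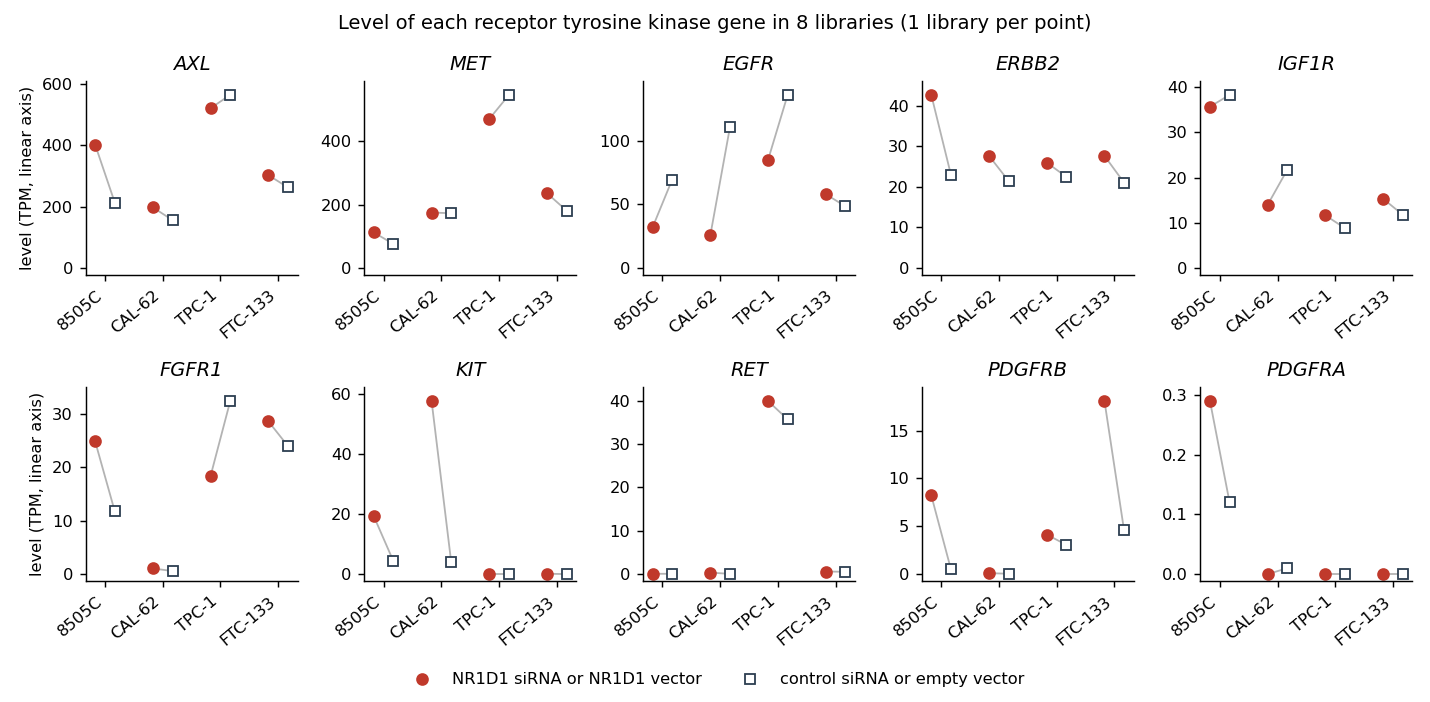
Each panel plots 1 gene's level in TPM on a linear axis for the 4 lines, with filled circles for the NR1D1 siRNA or NR1D1 vector library and open squares for its control, 1 library per point. RET is above 1 TPM in TPC-1 alone, KIT in 8505C and CAL-62 alone, and EGFR is lower after siRNA in both siRNA lines.

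After NR1D1 siRNA, KIT was higher and EGFR lower in both siRNA lines, and no other gene of the 10 was past 2-fold in both. KIT stood at 19.2 TPM after siRNA against 4.25 TPM with control siRNA in 8505C, on 550 and 102 reads. In CAL-62 it stood at 57.6 TPM after siRNA against 3.93 TPM in the control, on 1874 and 157 reads. The siRNA libraries were thus 4.53-fold (95% exact binomial interval 3.66 to 5.65) and 14.7-fold (12.4 to 17.4) above their controls, and KIT passed EGFR, IGF1R and ERBB2 to become the third of the 10 in treated CAL-62. These intervals cover counting error only. On the log2(TPM + 1) scale the ratios were 1.95 and 3.57, at or below those of 2.35% and 0.0308% of the genes of each line. The mast cell marker genes TPSAB1 and MS4A2 were listed at 0 in all 8 libraries, and CPA3 reached 0.636 TPM at most. Of the melanocyte markers, which share KIT with mast cells, MITF stood at 7.85 TPM after siRNA and 14.6 TPM in the control of 8505C and at 0.381 and 1.42 TPM in CAL-62, while PMEL and DCT stayed under 1 TPM there. The 3 genes of that list summed to 8.38 and 15.4 TPM in 8505C and to 0.85 and 1.92 TPM in CAL-62. Across all 8 libraries that sum ran from 0.85 to 9.71 TPM in treated and from 1.92 to 15.4 TPM in control libraries.

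EGFR stood at 31.9 TPM after siRNA against 69.4 TPM with control siRNA in 8505C, and at 25.5 TPM against 110 TPM in CAL-62. The siRNA libraries were at 0.459 (95% interval 0.435 to 0.484) and 0.231 (0.220 to 0.243) times their controls, on at least 1870 reads each. EGFR was the third of the 10 in both controls and the fifth in both siRNA libraries. Its log2 ratios of -1.10 and -2.07 were at or above those of 4.82% and 0.906% of genes. Relative to the trimmed mean of all genes the CAL-62 ratio was -1.83.

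ERBB2 did not follow EGFR. ERBB2 stood at 42.6 TPM after siRNA against 23.0 TPM in the control of 8505C and at 27.6 against 21.4 TPM in CAL-62, ratios of 1.85 and 1.29. PDGFRB stood at 8.23 TPM after siRNA against 0.52 TPM in the control of 8505C, on 302 and 16 reads, a ratio of 15.8 (9.60 to 28.1). In CAL-62 it rested on 4 reads after siRNA and 2 in the control, too few to show a difference. Pericyte markers, whose cells carry PDGFRB in tissue, summed to 123 TPM after siRNA and 48.6 TPM in the control of 8505C with 5 and 4 of 5 at 1 TPM or more, and to 51.0 and 26.6 TPM in CAL-62 with 3 and 2. Fibroblast markers, the other usual source of PDGFRB, summed to 48.5 and 36.5 TPM in 8505C with 4 and 4 of 6 at 1 TPM or more, and to 457 and 59.1 TPM in CAL-62 with 2 and 1. In CAL-62 that sum was nearly all COL1A1, at 455.7 and 58.8 TPM, while DCN and THY1 were at 0 in both libraries. The part of such cells in these values was not tested.

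FGFR1, a fibroblast growth factor receptor gene, was at 24.8 TPM after siRNA against 11.7 TPM in the control of 8505C, a ratio of 2.11 (1.94 to 2.31). Its log2 ratio of 1.02 lay just past the threshold of 1 and was 0.96 after trimmed mean rescaling. That rescaling leaves KIT and PDGFRB as the 2 genes at least 2-fold higher in 8505C. AXL in 8505C, at 1.88 times its control with a log2 ratio of 0.91, was the nearest below the threshold. In CAL-62 FGFR1 stood at 1.06 against 0.573 TPM, on 86 and 57 reads. MET was 1.49 times its control in 8505C and 1.01 times (0.982 to 1.05) in CAL-62, where the interval held 1. That value depends on the scaling, since the log2 ratio of MET in CAL-62 was 0.02 as deposited, 0.27 after trimmed mean rescaling and 0.43 over genes not mitochondrially encoded. IGF1R was below its control in both lines, at 35.7 against 38.3 TPM in 8505C and at 14.0 against 21.8 TPM in CAL-62. RET stayed on few reads, 3 after siRNA and 2 in the control of 8505C and 14 and 3 in CAL-62. PDGFRA had 14 and 5 reads in 8505C and 0 and 1 in CAL-62.

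In 8505C 3 of the 8 genes with a mean of at least 1 TPM in that line were at least 2-fold higher after siRNA, where 11.9% of 16499 genes were, and 1 was at least 2-fold lower, where 5.86% were. Above 0 were 6 of the 8, where 52.9% of genes were. In CAL-62 1 of 6 was higher, where 5.30% of 16230 genes were, and 1 was lower, where 10.7% were. Above 0 were 4 of the 6, where 32.6% of genes were. Both lines together gave 1 gene higher, against 1.58% of genes, and 1 lower, against 1.55%. The median log2 ratio of the genes was 0.89 in 8505C, beside 0.05 over all genes, and 0.18 in CAL-62, beside -0.28. In CAL-62 it was 0.58, beside -0.04, after trimmed mean rescaling, and 0.75, beside 0.11, over genes not mitochondrially encoded. These ratios chose the genes, so the counts describe them and nothing is read from their distance to the background.

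**Figure D3:**
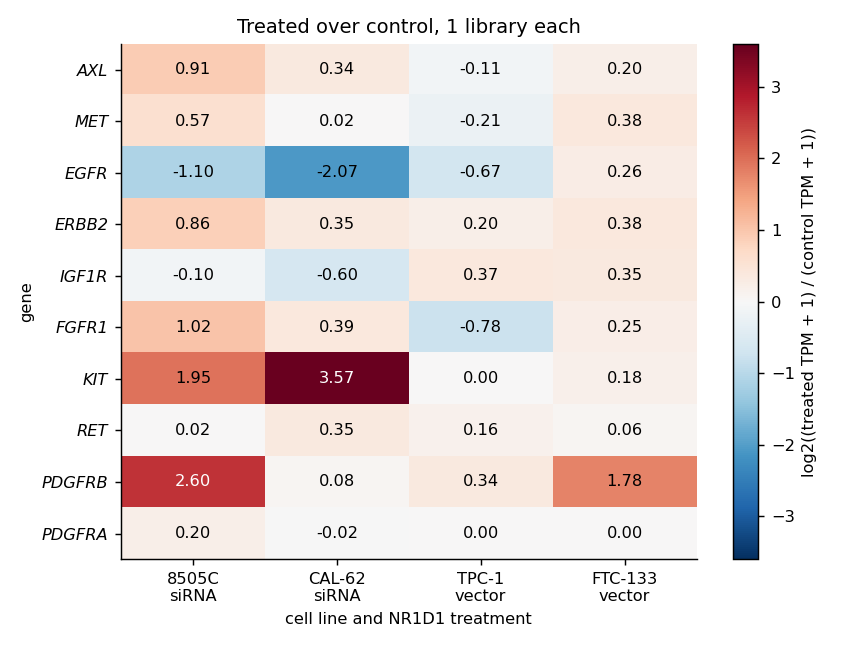
Each cell gives the log2 ratio of treated over control TPM, with 1 added to both, for a gene (rows) in a line (columns), red for higher and blue for lower in the treated library. KIT is at 1.95 and 3.57 and EGFR at -1.10 and -2.07 in the siRNA lines, and PDGFRB at 2.60 in 8505C and 1.78 in FTC-133.

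In the vector lines no gene of the 10 was past 2-fold the same way in both, where 0.875% of all genes were higher and 0.58% lower in both. In TPC-1 0 of the 8 genes with a mean of at least 1 TPM were past 2-fold, where 11.5% of 16175 genes were, 6.28% higher and 5.25% lower. There 4 of the 8 were above 0, where 46.8% of genes were. FGFR1 stood at 18.4 TPM with the NR1D1 vector against 32.3 TPM with the empty vector, a ratio of 0.568 (0.533 to 0.606). EGFR stood at 84.8 TPM against 136 TPM, a ratio of 0.624 (0.604 to 0.644). RET, on 1622 and 1448 reads, stood at 39.95 against 35.7 TPM, a ratio of 1.12 (1.04 to 1.20). FGFR1 and EGFR were the lowest ratios of the TPC-1 pair among these genes, and MET at 0.861 and AXL at 0.923 were also below their controls. ERBB2 at 1.16, IGF1R at 1.32 and PDGFRB at 1.35 times their controls were above them.

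In FTC-133 all 7 genes with a mean of at least 1 TPM were higher with the NR1D1 vector, where 54.8% of 16501 genes were above 0. PDGFRB alone was past 2-fold, where 9.76% of genes were higher and 6.91% lower by that much. It stood at 18.1 TPM with the NR1D1 vector against 4.56 TPM with the empty vector, on 531 and 141 reads, a ratio of 3.96 (3.28 to 4.80). The other 6 ran from 1.15 times control for AXL to 1.32 times for ERBB2, with MET at 1.30, IGF1R at 1.30, EGFR at 1.20 and FGFR1 at 1.19. Pericyte markers summed to 391.7 TPM with the NR1D1 vector and 257 TPM with the empty vector in FTC-133, with 4 and 5 of 5 at 1 TPM or more, and to 105 and 95.3 TPM in TPC-1, with 4 and 4. Fibroblast markers summed to 1354 and 1493 TPM in FTC-133, with 4 and 5 of 6 at 1 TPM or more. Within that list COL1A1 stood at 671 and 949 TPM, THY1 at 607 and 492 TPM and LUM at 65.7 and 26.8 TPM. In TPC-1 they summed to 1.02 and 1.48 TPM, with none at 1 TPM or more. Their part in the PDGFRB values was not tested. KIT had 3 reads with the NR1D1 vector and 0 with the empty vector in FTC-133 and none in either TPC-1 library. RET had 17 and 16 reads in FTC-133, and PDGFRA had none in any of the 4 vector libraries.

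**Figure D4:**
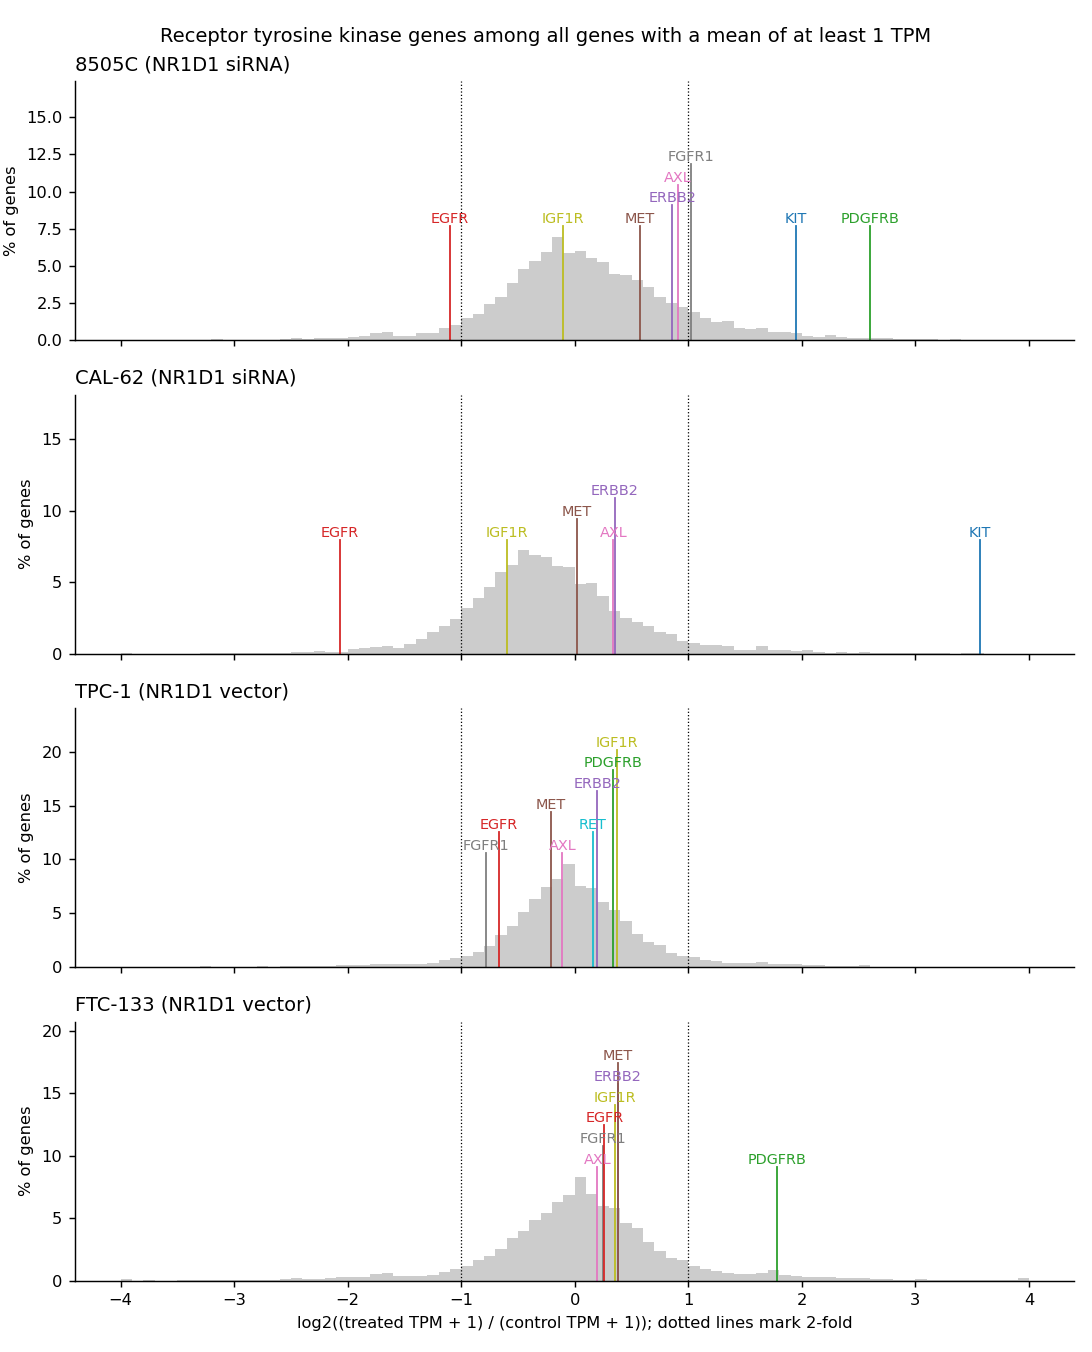
Grey bars give the percent of genes by log2 ratio of treated over control for each line, over genes with a mean of at least 1 TPM in that line, and coloured lines mark the receptor genes that passed the same filter, their heights serving only to separate labels. KIT and EGFR sit in opposite tails in 8505C and CAL-62, while in TPC-1 all 8 genes sit between the dotted 2-fold lines.

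Across all 4 lines IGF1R was the one gene whose ratio followed the label of NR1D1, below control after siRNA (-0.10 in 8505C, -0.60 in CAL-62 on the log2 scale) and above it with the vector (0.37 in TPC-1, 0.35 in FTC-133). Over all 17595 genes 10.1% had one sign throughout when each ratio was taken in the direction of higher NR1D1. The sizes were small, and IGF1R in 8505C was at 0.932 times its control (0.881 to 0.986). The CAL-62 log2 ratio of IGF1R was -0.37 after trimmed mean rescaling and -0.22 over genes not mitochondrially encoded. ERBB2 was higher in the treated library of every line, at a log2 ratio of 0.86 in 8505C, 0.35 in CAL-62, 0.20 in TPC-1 and 0.38 in FTC-133. PDGFRB had 2.60, 0.08, 0.34 and 1.78 in the same order, and RET 0.02, 0.35, 0.16 and 0.06, so the ratio was above 0 in all 4 lines for 3 of 9 genes, as for 6.78% of all genes. Of these 3, only ERBB2 had counting intervals clear of 1 in every line. PDGFRB in CAL-62 rested on 4 and 2 reads, and RET rested on 3 and 2 reads in 8505C and on 17 and 16 in FTC-133 (0.531 to 2.36).

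By their profile over the 8 libraries, EGFR was closest to RNF8, at a root mean square difference of 0.25 between centred log2(TPM + 1) values, and SLC35G1 at 0.30, among 10823 genes with a mean of at least 5 TPM. MET was closest to PBX3 (0.13) and DNM1 (0.21), AXL to RNF14 (0.15) and PI4KA (0.15), and ERBB2 to SVIL (0.16) and APBB3 (0.16). IGF1R was closest to KIF16B (0.16) and RCN2 (0.20), and FGFR1 to NFKBIA (0.28) and IRX3 (0.28). RET was closest to XIST (0.24) and MACROH2A2 (0.29). KIT had no neighbour as close, with CEACAM1 at 0.62 and PCDH1 at 0.71. The profiles were not scaled by their spread, so genes that vary little come out close to others more readily.

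The other 48 genes of the family, a textbook list, were counted beside the 10. In 8505C 6 of the 22 with a mean of at least 1 TPM were at least 2-fold higher after siRNA and 0 lower, where 11.9% and 5.86% of all genes were. Their median log2 ratio was 0.73, beside 0.05 over all genes. They were ERBB3, FGFR3, EPHA2, EPHA4, EPHB3 and DDR1, named once their values had been seen. EPHA2, an ephrin receptor gene, stood at 235 TPM after siRNA and 106 TPM in the control, and DDR1, a collagen receptor gene, at 42.3 and 20.4 TPM. Endothelial markers summed to 145.66 TPM after siRNA and 49.54 TPM in the control of 8505C with 2 of 5 at 1 TPM or more in each, and TEK at 0 in the control. Immune markers summed to 85.66 and 22.89 TPM with 1 of 5 in each, with MS4A1 at 0 in both and PTPRC in the control. Their part in the 8505C values was not tested. In CAL-62 2 of 17 were at least 2-fold higher and 0 lower, where 5.30% and 10.7% of all genes were, with a median of 0.34 beside -0.28. Endothelial markers summed there to 0.31 and 0.22 TPM, and immune markers to 12.38 and 1.17 TPM with 1 of 5 at 1 TPM or more in each and MS4A1 at 0 in both. The 2 genes were MERTK, of the AXL family, at 27.9 TPM after siRNA and 8.86 TPM in the control, and EPHA3, an ephrin receptor gene, at 6.53 and 0.148 TPM, also named after their values were seen. MERTK had a log2 ratio of 0.98 in 8505C. EPHB3 was past 2-fold higher in both siRNA lines, as were 1.58% of all genes. In CAL-62 it stood at 1.66 against 0.0922 TPM, under the filter of that line. With the NR1D1 vector 1 of 18 was at least 2-fold higher and 0 lower in TPC-1, where 6.28% and 5.25% of all genes were. That gene was EPHA5, at 1.75 against 0.312 TPM, and it was past 2-fold higher in FTC-133 too. Its mean over the 8 libraries was 0.771 TPM. Of genes with a mean of at least 1 TPM, 0.875% were past 2-fold higher in both vector lines. In FTC-133 6 of 23 were higher and 2 lower, where 9.76% and 6.91% of all genes were. The medians there were 0.07 and -0.01. The genes past 2-fold in FTC-133, named likewise, were CSF1R, KDR, MUSK, TIE1, EPHA2 and EPHA5, higher, and FGFR4 and EPHA7, lower. KDR, a neighbour of KIT and PDGFRA on chromosome 4, stood at 4.85 TPM with the NR1D1 vector and 0.493 TPM with the empty vector there, and under 1 TPM in the other 6 libraries. TIE1, like KDR a receptor gene of endothelial cells, stood at 13.2 and 9.05 TPM in 8505C and at 19.2 and 2.27 TPM in FTC-133, where the 5 endothelial markers summed to 2.08 and 1.55 TPM. The part of such cells in these values was not tested.

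Over all 17595 genes limma, with the cell line as a block, called 0 genes after Benjamini-Hochberg adjustment in the siRNA, vector and 4-line comparisons, so 0 of the 25 family members in the fit passed and the other 23 were not tested. At an unadjusted p under 0.05, 12.0% of all genes passed for siRNA, 4.46% for the vector and 4.09% for the 4 lines. Among the 25 family members in the fit, 3 were higher and 0 lower for siRNA, 3 higher and 0 lower for the vector, and 0 higher and 1 lower where NR1D1 was higher in the 4-line comparison. The block removes level differences between lines. These p-values thus rest on how far the treated over control change differed between lines, mixed with the noise of single libraries.

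**Figure D5:**
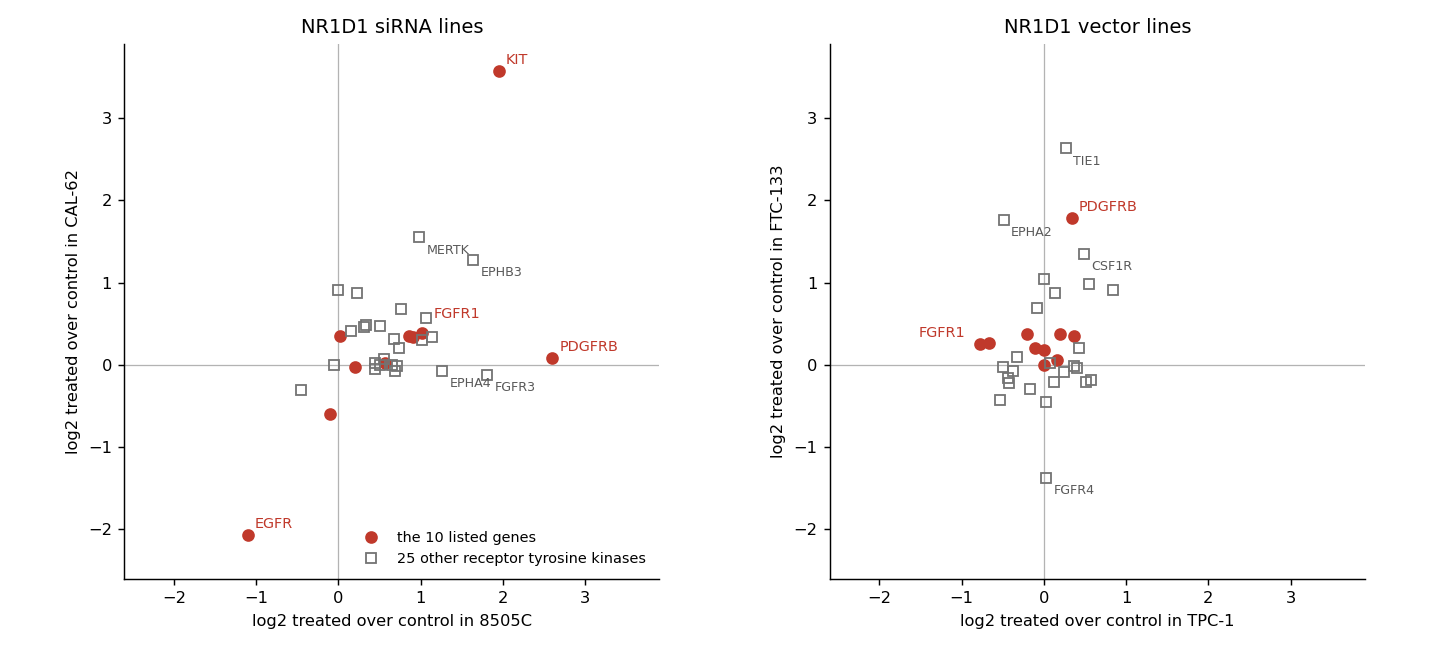
Points give log2 ratios of treated over control in 8505C (x) and CAL-62 (y) on the left and in TPC-1 (x) and FTC-133 (y) on the right, red circles for the 10 genes and open squares for the 25 other receptor tyrosine kinase genes with a mean of at least 1 TPM. KIT lies highest in the siRNA panel, at 1.95 and 3.57, and EGFR is the only point there below -1 on both axes.

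Of 33 ligand and co-receptor genes, 15 had a mean of at least 5 TPM. Among these, 1 was past 2-fold higher in both siRNA lines and 0 lower, where 1.58% and 1.55% of all genes with a mean of at least 1 TPM were. In both vector lines 1 was higher and 2 lower, where 0.875% and 0.58% of all genes were. HBEGF, which encodes an EGFR ligand, stood at 125 TPM after siRNA against 33.8 TPM in the control of 8505C and at 104 against 39.0 TPM in CAL-62. The EGFR ligand genes AREG and TGFA were within 2-fold in 8505C, and AREG was at the threshold in CAL-62. AREG stood at 84.9 against 92.7 TPM in 8505C and at 16.6 against 34.1 TPM in CAL-62, and TGFA at 20.7 against 11.8 TPM and at 44.5 against 34.8 TPM. KITLG, the ligand gene of KIT, stood at 69.7 TPM after siRNA against 73.7 TPM in the control of 8505C and at 1.79 against 5.68 TPM in CAL-62. GAS6, the ligand gene of AXL, stood at 7.53 against 2.20 TPM and at 82.6 against 52.1 TPM. PDGFA, which encodes a ligand of the receptor made from PDGFRA, stood at 35.8 against 9.82 TPM in 8505C and at 17.9 against 8.75 TPM in CAL-62. PDGFA was higher with the NR1D1 vector too, at log2 ratios of 0.6 in TPC-1 and 1.49 in FTC-133. Its rise was thus not particular to siRNA. PDGFB, which encodes a ligand of both PDGF receptors, stood at 31.3 against 21.1 TPM in 8505C and at 11.6 against 25.2 TPM in CAL-62. EREG stood at 228 against 287 TPM in 8505C and was under 1 TPM in CAL-62. FGF1 and FGF5, FGF receptor ligand genes named after their values were seen, stood at 12.1 against 0.326 TPM and at 19.0 against 3.52 TPM in 8505C. FGF1 was under 1 TPM in CAL-62, and FGF5 stood at 2.65 against 2.76 TPM there.

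With the NR1D1 vector, GFRA1, which encodes the co-receptor through which GDNF engages RET, stood at 50.0 TPM against 7.63 TPM with the empty vector in TPC-1 and at 12.8 against 0.931 TPM in FTC-133. EREG, which encodes the EGFR ligand epiregulin, stood at 116 against 410 TPM in TPC-1 and at 0.765 against 11.4 TPM in FTC-133. FGF5, an FGF receptor ligand gene, stood at 119 against 253 TPM and at 17.5 against 41.0 TPM. GDNF itself, at 6.55 against 5.20 TPM and 6.61 against 5.74 TPM, differed less. HGF and IGF1 were near or at 0 in all lines, with HGF at most 1.18 TPM and IGF1 at most 0.0285 TPM, and IGF2 was listed at 0 in all 8 libraries. Of the 33 genes 21 were in the limma fit and 0 of these passed after adjustment in any comparison, and at an unadjusted p under 0.05 3 were higher and 0 lower for siRNA, 2 higher and 2 lower for the vector, and 1 higher and 1 lower in the 4-line comparison.

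Among 34 adaptor and negative regulator genes, CBL was the one past 2-fold the same way in both siRNA lines. It was lower in both, as were 1.55% of all genes with a mean of at least 1 TPM. CBL stood at 19.8 TPM after siRNA against 43.8 TPM in the control of 8505C and at 16.5 against 43.9 TPM in CAL-62, log2 ratios of -1.10 and -1.36. IRS2, named after its values were seen, fell just short on the higher side, at log2 ratios of 1.56 in 8505C and 0.99 in CAL-62. The CAL-62 median over all genes was -0.28, and the CBL and IRS2 ratios were not recomputed under the other scalings. That CBL alone was past 2-fold in both lines thus rests on this scaling and threshold. None was past 2-fold the same way in both vector lines, where 0.875% of all genes were higher and 0.58% lower. In 8505C 2 of 32 were at least 2-fold higher and 1 lower, where 11.9% and 5.86% of all genes were. In CAL-62 0 of 31 were higher and 3 lower, where 5.30% and 10.7% were. In TPC-1 0 of 30 were past 2-fold in either direction, where 11.5% were. In FTC-133 2 of 32 were higher and 3 lower, where 9.76% and 6.91% were. GRB2 and SHC1, the main adaptors, were within 2-fold in every line. By limma 0 of the 32 in the fit passed after adjustment, and at an unadjusted p under 0.05 there was 1 higher and 1 lower for siRNA, 0 for the vector, and 1 higher and 0 lower in the 4-line comparison.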

How the data were processed

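RNA-seq libraries (8, of 4 lines) were deposited as 1 table per line. Per the submitters' processing notes, Trimmomatic 0.38, featureCounts 2.0.0 and GRCh38 were used. No source used here gives the aligner, annotation release, siRNA sequences or harvest time. The authors deposited TPM for CAL-62 and 8505C, summing to 1000000. Those deposited for TPC-1 and FTC-133 summed to 253330.3 to 261469.4, and value times GENCODE 29 exon length summed to what FPKM gives (1.001 to 1.005), so these FPKM values were rescaled to 1000000.

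Symbols were matched for 58472 of 58884 identifiers. Multiplying each value by its gene's exon length and by 1 factor per library gave read numbers, and 92.7% to 93.7% of values of 1 to 10 reads came out within 0.02 of a whole number. This was not enough for a count model, and the reads of the 10 genes were within 1.90% of whole. They serve for exact binomial intervals (95%) and for the limit of 3 reads, which cover counting error only.

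Ratios are log2((treated + 1)/(control + 1)), and 2-fold means a log2 ratio of at least 1 in size. limma 3.58.1 in R 4.3.3 ran on log2(TPM + 1), with cell line as a block and a prior spread following expression, over genes with a mean of at least 1 TPM, and was tested on simulated data. The shared cell line alone pairs the libraries. The genes and lists were chosen with earlier results of these data known. Pathway genes were named where past 2-fold with 1 sign in both lines of an approach at a mean of at least 5 TPM, together with direct ligands of the 10. Alternatives were a pseudocount of 0.1, a trimmed mean rescaling without weights, rescaling over genes not mitochondrially encoded, other filters, leaving out each line and dropping the block.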

Additional observations from a re-analysis of the deposited data

Results flagged for a closer look

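With the NR1D1 vector, 4 genes lay on opposite sides of their control in FTC-133 and TPC-1, with both counting intervals clear of 1. The log2 ratio in FTC-133 minus that in TPC-1 was 1.03 for FGFR1 (0.25 and -0.78), 0.93 for EGFR (0.26 and -0.67), 0.59 for MET (0.38 and -0.21) and 0.31 for AXL (0.20 and -0.11). These differences were not tested, since each line had 1 library per group. No gene did so in the siRNA lines, 8505C and CAL-62.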

How the results depend on the processing

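Of 120 recomputed ratios of the 10 genes (pseudocount 0.1, trimmed mean rescaling, rescaling over genes not mitochondrially encoded), 0 changed sign, and 21 moved by more than their counting interval reaches to either side on the log2 scale. Ratios of 0 could not change sign. Ratios with no interval could not count as moved, such as KIT in FTC-133, at 0.18 and at 1.21 with the pseudocount of 0.1. Those that moved in CAL-62 included KIT and EGFR: KIT ran to 4.14 and EGFR to -1.69. With the pseudocount of 0.1, 2 of the 10 genes were past 2-fold higher in CAL-62 and 2 in FTC-133, RET (14 reads against 3) and KIT (3 against 0) joining, and 4 had a control range of at least 3, KIT and PDGFRB joining. Over all genes in CAL-62, 861 were at least 2-fold higher, against 1297 with the pseudocount of 0.1, 1639 after trimmed mean rescaling and 3080 over genes not mitochondrially encoded. At a mean of at least 5 TPM, genes past 2-fold higher numbered 991 in 8505C, 291 in CAL-62, 373 in TPC-1 and 585 in FTC-133, and lower 408, 1127, 319 and 395. With no filter 1274 were lower in TPC-1. At a mean of at least 5 TPM limma called 77 genes for siRNA and 7 for the vector. The calls numbered 0 in each comparison in every other setting, which included leaving out each line (0 to 0) and the fit with no replicate block (0). With 1 library per group, these data give no spread within a line, and values under 3 reads cannot be told from 0.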
